A study of Homo sapiens with 6 samples.

Results

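The replication-dependent histone genes encode the H1, H2A, H2B, H3 and H4 proteins that package newly made DNA. Members were chosen by symbol, as protein-coding genes named H1-1 to H1-6 or carrying a symbol that starts with H2AC, H2BC, H3C or H4C and a digit. The RefSeq annotation holds 70 such genes, and 59 of them were listed among the 12486 genes of the expression table. The listed genes comprised 6 H1, 16 H2A, 16 H2B, 10 H3 and 11 H4 genes. Of the annotated members, 55 lie on chromosome 6 between 25726063 and 27893891 (GRCh38.p14), 11 on chromosome 1 between 149782689 and 149887965, 2 on chromosome 1 between 228457364 and 228458558, and 1 each on chromosomes 12 and 21. The 11 members without a row (H2AC1, H2BC1, H2BC3, H2BC10, H3C3, H3C8, H3C11, H4C1, H4C6, H4C13 and H4C16) were not analysed here.

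The libraries came from K562, a human chronic myeloid leukemia line carrying the Bcr-Abl fusion, whose cells stably expressed 1 of 2 shRNAs. The control group (sh-luc) expressed an shRNA against luciferase and the knockdown group (sh-IUR1) an shRNA against lncRNA-IUR1, which the sample labels call lncRNA-up91, with 3 libraries each. Within each group 1 library is unnumbered and the others are r1 and r2, and the knockdown rests on 1 shRNA sequence. Values are FPKM, fragment counts scaled to transcript length and library size, and are listed below in the order unnumbered, r1, r2.

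Histone mRNAs of this class are made mainly in S phase, when DNA is copied, and are degraded when replication stops. Unlike other mRNAs, they usually end in a conserved stem-loop instead of a poly(A) tail. The stem-loop is bound by SLBP, and the U7 small nuclear ribonucleoprotein guides the cut that forms the end. Linker histone H1 binds the DNA between nucleosomes, and the nucleosome core is built from H2A, H2B, H3 and H4.

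The labelled cell line was checked against its markers. All 14 erythroid markers were listed, with summed FPKM from 6673 to 8303 per library. Summed markers of other cell types reached 5.08 FPKM for T cells, 1.36 for B cells, 0.74 for kidney-derived cells and 0.37 for fibroblasts, while 2 of 6 monocyte and granulocyte markers were listed, of which LYZ held 107 to 119 FPKM. The target lncRNA was not analysed here, so the knockdown itself was not checked, and the number of fragments behind each value is unknown. The study's methods describe the RNA as coming from independent groups of cells, and the labels do not say how these were cultured.

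The stem-loop is shown first because it defines the class. A stem of the form GGNNCT, a loop of 4 bases and the matching arm AGNNCC were searched in hg38 within 100 bases after the stop codon of each GENCODE model. The motif was found in 69 of 70 genes, between 23 and 68 bases after the stop codon with a median of 36, and H2BC12L on chromosome 21 was the gene without a match in this window. There were 10 different sequences, and those shown for H1-2, H2BC12, H4C5, H4C14 and H2AC11 were carried by 40, 9, 10, 4 and 1 genes. Sequences are written as DNA on the coding strand, with the stem in capitals.
H1-2, chr6:26055744-26055759, minus strand: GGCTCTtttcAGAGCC
H2BC12, chr6:27146366-27146381, minus strand: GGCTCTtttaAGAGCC
H4C5, chr6:26205001-26205016, plus strand: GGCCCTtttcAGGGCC
H4C14, chr1:149833032-149833047, plus strand: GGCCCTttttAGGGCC
H2AC11, chr6:27133515-27133530, plus strand: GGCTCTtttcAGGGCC
The left arm set the H4 family apart. GGCCCT was found in 15 of 15 H4 genes, whereas GGCTCT was found in all 6 H1, all 13 H3, 18 of the 19 H2B and 16 of the 17 H2A genes. H2AC11, shown above, was the 1 gene with that right arm after the GGCTCT left arm, and H2AC15 was the 1 gene with the left arm GGTTCT.

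Promoters were taken as the 250 bases before the RefSeq start, which were held for 64 of the 70 members. CCAAT (both strands) was present in 54 of these, or 84.4%, against 33% of all 27305 promoters. TATAAA (plus strand) was present in 57.8% against 7.17%, and the octamer ATTTGCAT (both strands) in 40.6% against 1.66%. The octamer, a sequence bound by POU-domain factors, was found in 14 of 18 H2B and 11 of 16 H2A promoters, in 1 of 11 H3 promoters and in 0 of 6 H1 and 0 of 13 H4 promoters. That H3 promoter, of H3C4, is the same stretch as the H2AC7 promoter, because the RefSeq model of H3C4 starts there. CCAAT was found in every H1, H2A, H2B and H3 promoter and in 3 of 13 H4 promoters. Divergent H2A and H2B genes share most of this stretch, since the starts of the 11 such pairs with both promoters held lie 194 to 248 bases apart. A match there on either strand can count for both genes, so the H2A and H2B counts overlap. A match is a description of these letters and not evidence of binding. The promoters of the highest H1 and H2B genes, of an H4 gene, and of a divergent pair are given below (GRCh38.p14, RefSeq), with matches in capitals.
H1-2, chr6:26056471-26056720, minus strand: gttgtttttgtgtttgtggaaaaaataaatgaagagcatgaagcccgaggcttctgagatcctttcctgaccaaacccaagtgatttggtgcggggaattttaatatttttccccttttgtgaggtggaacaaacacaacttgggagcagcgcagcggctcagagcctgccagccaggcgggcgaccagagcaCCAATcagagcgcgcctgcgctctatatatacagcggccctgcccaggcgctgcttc
H2BC12, chr6:27146859-27147108, minus strand: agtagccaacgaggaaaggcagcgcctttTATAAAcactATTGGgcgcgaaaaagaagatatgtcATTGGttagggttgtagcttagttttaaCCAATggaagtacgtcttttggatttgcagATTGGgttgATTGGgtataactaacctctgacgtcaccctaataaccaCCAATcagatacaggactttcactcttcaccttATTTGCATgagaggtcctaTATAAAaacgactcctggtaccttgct
H4C14, chr1:149832407-149832656, plus strand: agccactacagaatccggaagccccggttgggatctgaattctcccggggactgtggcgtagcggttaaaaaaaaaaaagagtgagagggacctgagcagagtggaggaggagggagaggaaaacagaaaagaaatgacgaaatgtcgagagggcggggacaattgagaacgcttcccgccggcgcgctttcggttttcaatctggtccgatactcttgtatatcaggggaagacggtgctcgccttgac
H2BC17, chr6:27893175-27893424, plus strand: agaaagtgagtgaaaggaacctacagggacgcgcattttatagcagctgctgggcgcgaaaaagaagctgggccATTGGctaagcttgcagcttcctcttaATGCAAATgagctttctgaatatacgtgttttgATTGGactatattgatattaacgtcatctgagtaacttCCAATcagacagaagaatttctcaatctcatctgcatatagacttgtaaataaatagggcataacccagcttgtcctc
The H1-2 stretch held CCAAT alone, the H2BC12 stretch all 3 motifs, and the H4C14 stretch none of them. The last stretch lies between H2BC17 and H2AC17, which are transcribed away from each other, and it held both CCAAT and the octamer. TATAAA was searched on the strand of each gene only, and the overlapping H2AC17 stretch, read on the other strand, held it.

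Mean levels of histone genes spanned more than 4 orders of magnitude in these cells, but the low end lay near 0. The lowest gene, H4C7, was listed at 0.17 FPKM in sh-luc r2 and at 0 in every other library. Among the 59 listed genes, 3 pairs (H2AC18 and H2AC19, H3C14 and H3C15, H4C14 and H4C15) had the same value in all 6 libraries and were each counted once, which left 56. Of these, 23 had a mean of at least 10 FPKM, 17 between 1 and 10, and 16 under 1, and the median was 5.21. Together they made up 0.338% of the FPKM of all listed genes. A pair of genes dominated this sum: H2BC12, with a mean of 686 FPKM, held 34.4% of it and 77.1% of the H2B sum, and H1-2, with 623 FPKM, held 31.3% of it and 96.9% of the H1 sum. The next was H2AC6 with 80.6 FPKM.

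**Figure D1:**
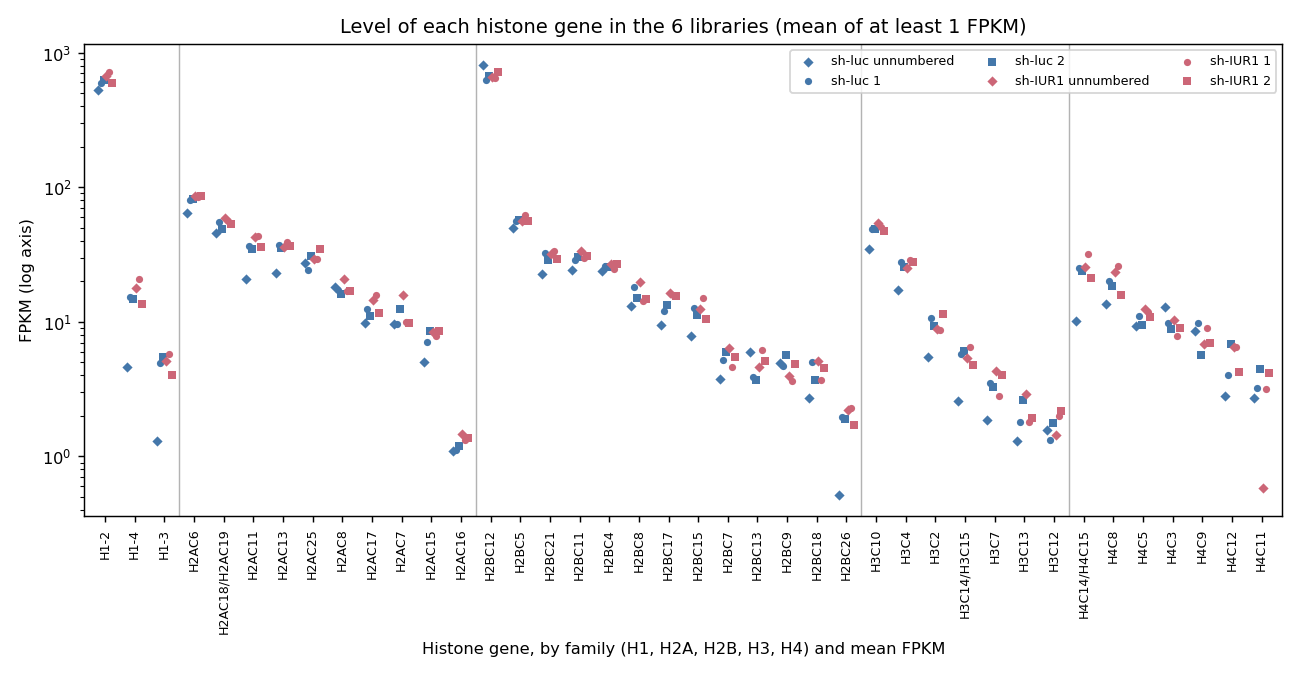
FPKM (log axis) of the 40 histone genes whose mean reached 1 FPKM, by family, with 1 point per library (blue for sh-luc, red for sh-IUR1; diamonds for the unnumbered libraries, circles for r1, squares for r2). H1-2 and H2BC12 lie above every other gene, and the blue diamond is the lowest point for most genes but the highest for H2BC12.

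The annotated gene models differed in length. H2BC12 spans 27138293 to 27146858 in RefSeq, far beyond its stem-loop, whereas H1-2 spans 26055740 to 26056470 as a single short model. Genes with a longer model (a spliced coding model, an end more than 200 bases past the stop codon, or a RefSeq span over 1000 bases) had a median of 25.5 FPKM over 16 genes, and the other 40 had a median of 4.52. None of 14 RNAs known to lack a poly(A) tail, such as RN7SK, was listed (0 of 14), and whether the libraries were selected for poly(A) is not given in the sources used here. Their part in the levels was not tested. Listed members shared exact coding-strand runs of 20 to 533 bases with another member of the same family, with a median of 56. In 18 genes the run reached 100 bases. Reads lying wholly within such a run cannot be told apart, and the read length was not examined here.

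The comparison of sh-IUR1 with sh-luc asked whether knockdown of the lncRNA moved histone mRNA. No histone gene passed the threshold, but most were somewhat higher in the sh-IUR1 group. Of the 51 members whose mean reached 0.1 FPKM, 0 had an adjusted p under 0.05 (limma, adjusted p from 0.930 to 0.977), as was true of 0% of the 12276 genes tested. The log2 fold change was above 0 for 43 of 51 members, or 84.3%, against 58% of all genes tested, and its median was 0.18 against 0.019. Fold changes are on the log2(FPKM + 1) scale, which understates those of low genes.

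At an unadjusted p under 0.05 there were 6 members higher in sh-IUR1 (H2BC17, H2AC20, H4C5, H2AC17, H4C4 and H2AC11), where 1.65% of all genes tested were higher at that level. There was 1 member lower, H2BC9, where 0.994% of all genes were lower. The 6 depended on single libraries, and so did the share of all genes. Without the unnumbered sh-luc library there were 3 (1.15% of all genes), without sh-IUR1 r1 also 3 (1.03%) and without the unnumbered sh-IUR1 library 4 (0.783%). When sh-IUR1 r2 was dropped there were 8 (3.87%), without sh-luc r2 11 (1.49%) and without sh-luc r1 15 (4.86%). Members and all genes did not always move alike, since dropping sh-luc r2 gave more members but fewer genes overall. The 1 lower member became 2 without the unnumbered sh-luc library or sh-IUR1 r2 and 0 without sh-luc r2 or the unnumbered sh-IUR1 library.

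All 3 sh-IUR1 values lay above all 3 sh-luc values for 3 members, H2BC17, H2AC6 and H2AC16, where this held for 4.04% of all genes tested. The reverse held for 0 members, where it held for 3.03% of all genes. Dropping a library leaves fewer values to separate, so both the count and the share of all genes grew. The count was 4 without the unnumbered sh-luc library (6.44% of all genes), 5 without the unnumbered sh-IUR1 library (6.41%) and 8 without sh-IUR1 r1 (8.21%). It was 9 without sh-luc r2 (8.03%), 10 without sh-luc r1 (13.5%) and, when sh-IUR1 r2 was dropped, 14 (15% of all genes). The reverse count became 1 when sh-luc r1, sh-IUR1 r1 or sh-IUR1 r2 was dropped, where it held for 8.47%, 6.01% and 10.1% of all genes.

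**Figure D2:**
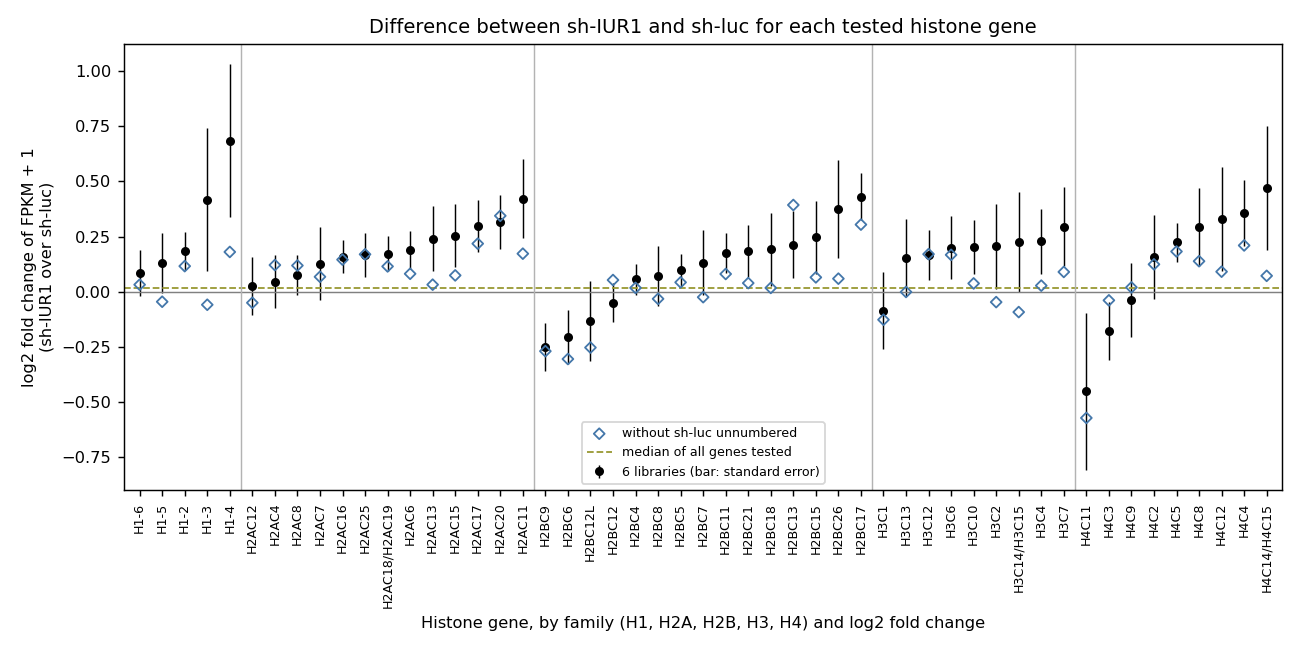
Log2 fold change of FPKM + 1 (sh-IUR1 over sh-luc) for the 51 tested histone genes, by family. Black points and bars are the fit to all 6 libraries with its standard error, open blue diamonds the fit without the unnumbered sh-luc library, and the dashed line the median of all genes tested (0.019); most points lie above 0, and most diamonds lie nearer to 0.

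The difference became smaller when a single control library, the unnumbered one, was left out. The unnumbered sh-luc library held the lowest of the 6 values for 33 of 51 members, or 64.7%, against 37.5% of all genes tested. Its median deviation from each gene's own mean was −0.24 on the log2 scale for histone genes and −0.029 for all genes. The other libraries had member medians of 0.026 (sh-luc r1), 0.027 (sh-luc r2), 0.13 (unnumbered sh-IUR1), 0.12 (sh-IUR1 r1) and 0.017 (sh-IUR1 r2). Thus sh-IUR1 r2 lay below both numbered sh-luc libraries in this median.

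Without the unnumbered sh-luc library, the median log2 fold change of members was 0.062 over 52 tested genes, and 37 of 52, or 71.2%, lay above 0, against 52.7% of all genes. By family the medians then became 0.032 for H1, 0.12 for H2A, 0.028 for H2B, 0.027 for H3 and 0.091 for H4. In H2A 12 of 13 genes remained above 0. The same library had the highest summed erythroid markers (8303 FPKM) and the highest summed G2 and M phase genes (580.3 against 466 to 535). It was the highest for 6 of those 10 G2 and M phase genes, against 23.7% of all genes tested. The part of either list in the histone values was not tested.

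**Figure D3:**
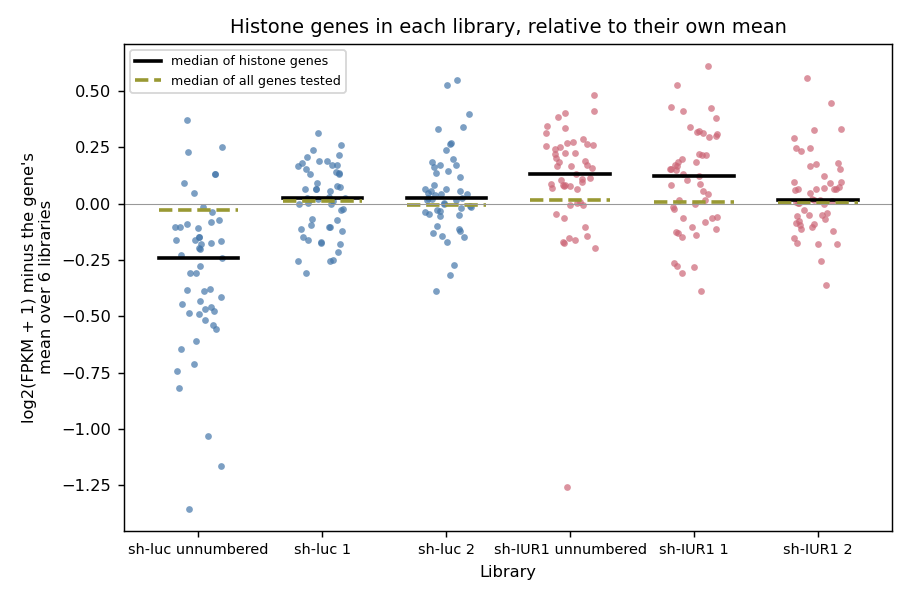
Deviation of log2(FPKM + 1) from the gene's mean over the 6 libraries, with 1 point for each of 51 histone genes in each library (blue for sh-luc, red for sh-IUR1). The solid line is the median of histone genes and the dashed line that of all genes tested: the lines part most in the unnumbered sh-luc library, at −0.24 and −0.029.

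Among the linker histones, the 5 tested genes all had a log2 fold change above 0, with a median of 0.18. H1-2 had 529, 589 and 629.9 FPKM in sh-luc against 669, 723 and 596 in sh-IUR1. The groups overlapped, since sh-IUR1 r2 lay below sh-luc r2, and the log2 fold change was 0.18 (SE 0.09, limma adjusted p = 0.930). H1-4 had the largest log2 fold change of all members at a pseudocount of 1, 0.69 (SE 0.35), whereas at a pseudocount of 0.1 the low genes H2AC20 (0.92) and H4C4 (0.86) exceeded its 0.75. Its values were 4.6, 15.2 and 14.8 FPKM in sh-luc against 17.9, 20.8 and 13.5 in sh-IUR1, so that 1 control library stood far below the other 5. Without that library the fold change of H1-4 was 0.18.

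H1-3 showed the same form, with 1.29, 4.91 and 5.45 FPKM in sh-luc against 5.07, 5.81 and 4.03 in sh-IUR1. Its log2 fold change was 0.42 (SE 0.32) with all libraries and −0.06 without the unnumbered sh-luc library. H1-5 and H1-6 had means of 0.43 and 0.27 FPKM. H1-1, whose mean lay below the filter, was listed at 0 in all 3 sh-luc libraries and at 0.13 FPKM in all 3 sh-IUR1 libraries.

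All 13 tested H2A genes had a log2 fold change above 0, from 0.02 (H2AC12) to 0.42 (H2AC11), except that H2AC12 was at −0.0084 after quantile normalization. Their summed FPKM was 226, 283 and 281 in sh-luc against 317, 305 and 295 in sh-IUR1. The groups did not overlap in this sum, with means of 263 ± 31.9 and 306 ± 11.0 (SD, n = 3). With 3 libraries against 3, an exact two-sided permutation test cannot give a p below 0.1.

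H2AC6, the highest H2A gene, had 64.6, 80.9 and 81.1 FPKM in sh-luc against 86.2, 85.1 and 85.8 in sh-IUR1. All 3 sh-IUR1 values were higher than the sh-luc values and lay close to each other, and the log2 fold change was 0.19 (SE 0.09). The identical genes H2AC18 and H2AC19 had 45.8, 55.0 and 48.8 FPKM in sh-luc against 59.5, 56.2 and 53.0, with a fold change of 0.17 (SE 0.08) and overlapping groups. H2AC11, whose stem-loop is shown above, had 20.9, 36.8 and 34.7 FPKM against 42.7, 43.0 and 36.0, with a log2 fold change of 0.42 (SE 0.18). Its sh-IUR1 r2 value lay below that of sh-luc r1, so the groups overlapped.

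H2AC17 had 9.82, 12.4 and 11.1 FPKM in sh-luc against 14.6, 15.7 and 11.5 in sh-IUR1, a log2 fold change of 0.30 (SE 0.12). H2AC20 was low, with 0.27, 0.27 and 0.13 FPKM in sh-luc against 0.81, 0.53 and 0.27 in sh-IUR1 (log2 fold change 0.32, SE 0.12). In both genes sh-IUR1 r2 lay within or at the sh-luc range. H2AC16 was the other H2A gene without overlap, with 1.10, 1.11 and 1.20 FPKM against 1.47, 1.32 and 1.36.

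The H2B family held both the largest single level and the most genes below 0. H2BC12 had 802, 627 and 668 FPKM in sh-luc against 653, 645 and 719 in sh-IUR1, so that the unnumbered sh-luc library, the lowest for most members, was the highest here. Its log2 fold change was −0.05 (SE 0.09) with all libraries and 0.05 without that library. H2BC12 outweighs its family, so the summed FPKM of H2B was 970.5, 835 and 871 against 872, 861 and 924, whereas without H2BC12 it was 169, 207 and 204 against 219, 216 and 206. The sh-luc r1 and sh-IUR1 r2 sums without H2BC12 overlapped.

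Of the 15 tested H2B genes 11 had a log2 fold change above 0, with a median of 0.13. H2BC17 had the smallest unadjusted p of all members, with 9.53, 12.03 and 13.4 FPKM in sh-luc against 16.3, 15.9 and 15.5 in sh-IUR1. Every sh-IUR1 library was higher than every sh-luc library, and the log2 fold change was 0.43 (SE 0.11, limma adjusted p = 0.930). H2BC5 had 49.9, 56.1 and 56.7 FPKM against 55.8, 62.5 and 56.2, and H2BC21 had 22.5, 32.6 and 28.9 against 31.6, 33.7 and 29.5. Both overlapped between groups, with log2 fold changes of 0.10 (SE 0.07) and 0.18 (SE 0.12).

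On the other side, H2BC9 had 4.94, 4.68 and 5.69 FPKM in sh-luc against 3.96, 3.61 and 4.84 in sh-IUR1, with a log2 fold change of −0.25 (SE 0.11). The groups overlapped, because sh-IUR1 r2 lay above sh-luc r1. H2BC6 and H2BC12L were near 0, with means of 0.23 and 0.15 FPKM, and their log2 fold changes were −0.21 and −0.13. H2BC12L, the gene without a stem-loop match, was listed at 0 in 4 of 6 libraries, and it shares a run of 146 bases with H2BC12.

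**Figure D4:**
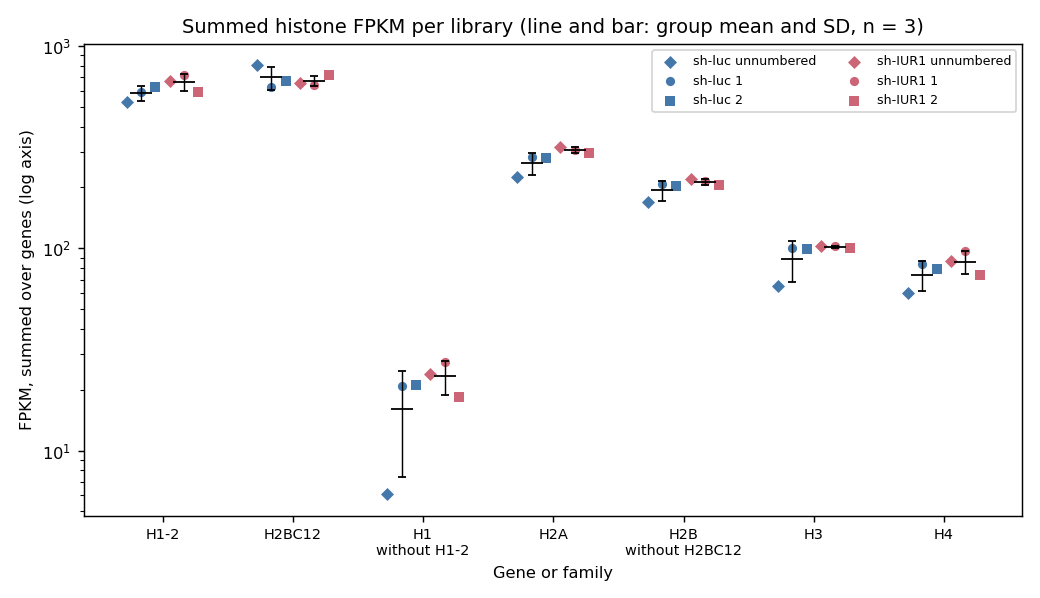
FPKM (log axis) of H1-2 and of H2BC12, and FPKM summed over the remaining genes of H1 and H2B and over all genes of H2A, H3 and H4, with 1 point per library (blue for sh-luc, red for sh-IUR1) and lines and bars for the group mean and SD (n = 3). The groups do not overlap for H2A (226 to 283 against 295 to 317), and the unnumbered sh-luc library is the lowest in every column except H2BC12.

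The H3 genes had a median log2 fold change of 0.20, above 0 for 8 of 9 tested genes, and their sums were 65.3, 101 and 98.7 FPKM in sh-luc against 102, 103 and 100.4 in sh-IUR1. The sh-luc r1 sum thus lay inside the sh-IUR1 range, and the ratio of group means was 1.15 with all libraries and 1.02 after dropping the unnumbered sh-luc library. H3C10, the highest, had 34.7, 49.2 and 49.2 FPKM against 53.8, 50.7 and 47.3 (log2 fold change 0.20, SE 0.12). H3C4 had 17.2, 27.9 and 25.4 against 24.9, 28.8 and 27.9 (0.23, SE 0.15). The RefSeq span of H3C4 (26196784 to 26199293) contains that of H2AC7 (26198784 to 26199293). The part of H2AC7 in the H3C4 level was not tested. H3C2 had 5.49, 10.6 and 9.34 against 8.89, 8.73 and 11.4 (0.20, SE 0.19). In all 3 genes the groups overlapped, and that of H3C2 was −0.05 without the unnumbered sh-luc library.

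The H4 genes varied most among themselves, with log2 fold changes from −0.45 to 0.47 and a median of 0.22 over 9 tested genes, 6 of them above 0. The identical genes H4C14 and H4C15 had 10.2, 25.0 and 24.0 FPKM in sh-luc against 25.6, 31.8 and 21.0 in sh-IUR1 (log2 fold change 0.47, SE 0.28). H4C8 had 13.6, 20.0 and 18.4 against 23.3, 26.01 and 15.8 (0.29, SE 0.18). In both the sh-IUR1 r2 value lay below the numbered sh-luc values. H4C5 had a narrower spread, with 9.25, 11.0 and 9.44 FPKM against 12.5, 11.8 and 10.9 and a log2 fold change of 0.22 (SE 0.09), and overlapped only between sh-luc r1 and sh-IUR1 r2.

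H4C4 was low, with 0.18, 0.53 and 0.69 FPKM in sh-luc against 0.53, 1.04 and 1.06 in sh-IUR1 (log2 fold change 0.36, SE 0.15). H4C3 went the other way, with 12.8, 9.81 and 8.81 FPKM against 10.3, 7.88 and 9.05 (−0.18, SE 0.13), and the unnumbered library was the highest of the sh-luc group. H4C11 had the lowest log2 fold change of all members at a pseudocount of 1, −0.45 (SE 0.36), whereas at 0.1 it was −0.73 and H2BC6 was −0.89. Its values were 2.73, 3.24 and 4.44 FPKM in sh-luc against 0.58, 3.14 and 4.14 in sh-IUR1. The fold change rested on the unnumbered sh-IUR1 library, without which it was 0.06. H4C11 shares a run of 362 bases with H4C12, which had 2.80, 4 and 6.83 FPKM in sh-luc against 6.49, 6.52 and 4.25 in sh-IUR1.

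H2A and H2B genes often stand head to head and are transcribed away from each other. Among genes with a promoter held there were 11 such pairs, with starts 194 to 248 bases apart. Both genes were listed for 10 of them. H2AC12 (plus strand, from 27147106) and H2BC12 (minus strand, to 27146858) also stand head to head. No promoter was held for H2AC12, so this pair was not counted, and its means were 0.53 and 686 FPKM. Partners often differed in level: in 4 of 10 pairs the means were within 2-fold, and in 6 the H2A gene was the higher. In the pair H2AC17 and H2BC17, whose shared stretch is printed above, the means were 12.5 and 13.8 FPKM, and in H2AC8 and H2BC8 they were 17.7 and 15.8. In contrast, H2AC20 had 0.38 FPKM beside 29.8 for H2BC21, H2AC25 had 29.3 beside 1.76 for H2BC26, and H2AC13 had 34.5 beside 4.91 for H2BC13.

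In all 9 counted pairs with both genes tested, both log2 fold changes were above 0. They were 0.30 and 0.43 for H2AC17 and H2BC17, 0.42 and 0.17 for H2AC11 and H2BC11, and 0.25 and 0.25 for H2AC15 and H2BC15. The uncounted pair H2AC12 and H2BC12 had 0.02 and −0.05, so this did not hold for every head-to-head pair. Partners share the same libraries, including the unnumbered sh-luc library, so the pairs are not independent of each other.

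Summed over all 56 genes, histone FPKM was 1858, 1912 and 1981 in sh-luc against 2071, 2116 and 2008 in sh-IUR1, with means of 1917 ± 61.6 and 2065 ± 54.3 (SD, n = 3). The groups did not overlap, and the ratio of means was 1.08, or 1.06 without the unnumbered sh-luc library. H1-2 and H2BC12 set this sum and differed in which library was lowest. Without both genes it was 527, 695 and 683 against 749, 749 and 694, where sh-luc r1 and sh-IUR1 r2 overlapped, and the ratio was 1.15, or 1.06 without the unnumbered sh-luc library.

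The genes that make and use histone mRNA were examined as lists, and 0 genes of any list had an adjusted p under 0.05 (limma). The 10 genes of histone transcription had a median log2 fold change of 0.033, with 6 above 0. NPAT, the coactivator that switches histone genes on in S phase, had 6.68, 5.91 and 5.33 FPKM in sh-luc against 6.19, 5.59 and 6.89 in sh-IUR1 (0.05, SE 0.10). The order of the libraries in NPAT thus differed from that of most histone genes. Of the 10 genes, 5 were lowest in the unnumbered sh-luc library, against 37.5% of all genes tested, and 2 were highest there, against 23.7%. For 1 gene, HINFP, all sh-IUR1 values lay above all sh-luc values, as for 4.04% of all genes.

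The 17 genes of stem-loop binding and 3′ end processing had a median of −0.046, with 7 above 0. Of these genes 1, SNRPF, was lower at an unadjusted p under 0.05, where 0.994% of all genes tested were lower. SLBP, which binds the stem-loop, had 83.6, 67.6 and 69.6 FPKM in sh-luc against 66.6, 56.6 and 69.0 in sh-IUR1. Its log2 fold change was −0.20 (SE 0.10), the unnumbered sh-luc library held its highest value, and the groups overlapped between sh-luc r1 and sh-IUR1 r2. LSM10 and LSM11, subunits of the U7 particle, had log2 fold changes of 0.05 (SE 0.08) and 0.05 (SE 0.08), with overlapping groups, and that of LSM11 was −0.00073 after quantile normalization.

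The remaining lists lay near the median of all genes or below it. Decay and translation factors had a median of 0.015 over 10 genes, chaperones −0.018 over 20 and S phase genes −0.031 over 22. G2 and M phase genes had −0.085 over 10. S phase and G2 and M phase genes each held 1 gene lower at an unadjusted p under 0.05, PCNA and CCNB1. Of all genes tested, 0.994% were lower at that level. In all these lists 0 were higher, where 1.65% of all genes were. After quantile normalization the median of decay and translation factors was −0.015. PCNA, the replication clamp, had 185, 160.0 and 165 FPKM in sh-luc against 155, 137 and 159 in sh-IUR1. Its log2 fold change was −0.18 (SE 0.08). The sh-IUR1 values of PCNA and of the chaperone RBBP4 all lay below their sh-luc values, as for 3.03% of all genes tested.

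Histone genes outside the symbol rule, grouped here as replication-independent, were compared last. Their mRNAs are usually polyadenylated, but this was not checked for each gene. Of 21 such genes 11 were listed and 9 tested, with a median log2 fold change of −0.086 and 2 above 0. H2AZ1, an H2A variant, had 559, 487 and 511 FPKM in sh-luc against 492, 465 and 503 in sh-IUR1 (−0.09, SE 0.07). H3-3A had 472, 410.1 and 412 against 420.3, 389 and 408 (−0.09, SE 0.07), while H3-3B, which encodes the same H3.3 protein, had 117, 143 and 138 against 149.8, 150.2 and 126 (0.10, SE 0.09).

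H2AX, the variant phosphorylated at DNA breaks, had 123, 102 and 119 FPKM in sh-luc against 99.5, 106 and 114 in sh-IUR1 (−0.10, SE 0.08). H1-10, a linker variant, had 63.3, 83.7 and 78.4 against 80.4, 95.4 and 76.7 (0.16, SE 0.11). The groups overlapped in each of these 5 genes. H2AZ1, H3-3A and H2AX had their highest value in the unnumbered sh-luc library, as H2BC12 did, whereas H3-3B and H1-10 had their lowest there, as H1-2 did. The difference between the classes was not tested.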

How the data were processed

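RNA-seq of 6 K562 libraries (3 sh-luc, 3 sh-IUR1) was analysed from the gene table. The authors trimmed and masked the reads, mapped them to hg38 and deposited FPKM with 2 decimals per gene and library, with SAMtools 0.1.19 named in the submitters' processing notes. The aligner, the annotation release and the selection of RNA before library preparation are not given in the sources used here. The table also holds z-scores, cluster numbers and cluster memberships by the authors, which were not used, and every listed gene has an SD over the 6 libraries of at least 0.05 FPKM. Depth per library is unknown, so no counting interval is given.

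Entrez identifiers were matched to RefSeq GRCh38.p14 symbols (12363 of 12486 genes). Of 84 symbols matching the pattern, 14 non-coding ones were left out. Genes whose mean reached 0.1 FPKM entered a linear model of log2(FPKM + 1) on group alone (limma 3.58.1, R 4.3.3, trended eBayes), with Benjamini-Hochberg adjustment over all genes tested. The step was tested on simulated data. The 5 members below the filter were H1-1, H2AC14, H2AC21, H2BC14 and H4C7. Members named with full values were, in each family, the 3 with the highest mean FPKM, the 5 in each direction with the smallest unadjusted p, and fixed genes of the lists. Other genes, such as H2AC16, H2AC12, H4C12, HINFP, SNRPF, RBBP4, CCNB1 and divergent partners, were named after their values were seen. Members and lists were chosen with earlier results of these data known, so no list was tested as a set.

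The fit was repeated with each library left out, with replicate number as a block, with untrended eBayes, after quantile normalization or median-ratio scaling, with 0.1 as the pseudocount, and with the filter removed or raised to 1 FPKM. Leaving out H1-2 and H2BC12 from the sum, counting identical genes separately, and leaving out members with shared runs were added after the data were seen. Stem-loops were read from hg38 with GENCODE release 44 models and promoters from RefSeq. Python 3.11.15, numpy 2.4.6, pandas 2.3.3 and matplotlib 3.10.9 were used.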

Additional observations from a re-analysis of the deposited data

How the results depend on the processing

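No histone gene had an adjusted p under 0.05 under any alternative. Counts at an unadjusted p under 0.05 were 13 higher and 2 lower with the replicate block, beside 2.89% and 1.45% of all genes tested. Same-numbered libraries deviated together for r1 (correlation 0.385) but not for the unnumbered libraries (0.044) or r2 (−0.34), so the numbers were not taken as pairs. Leaving out 1 library gave 3 to 15 higher and 0 to 2 lower, 4 to 14 members without overlap that were higher and 0 to 1 that were lower, and a median log2 fold change of 0.062 to 0.24. Without H1-2 and H2BC12, the ratio of sums was 1.15 instead of 1.08. The other values of the median ranged from 0.17 to 0.23. Among the 437 log2 fold changes of the 34 named genes under alternatives, 429 kept their direction and 8, in 7 genes, reversed. H1-3 ranged from −0.060 to 0.69, H2BC12 from −0.12 to 0.053 and H3C2 from −0.048 to 0.37 over the fits that left out a library, and each reversed without the unnumbered sh-luc library. H4C11 ranged from −0.79 to 0.063 and reversed without the unnumbered sh-IUR1 library. NPAT ranged from −0.016 to 0.12, with −0.014 without sh-IUR1 r2, and LSM10 from −0.022 to 0.095. LSM11 was −0.00073 under quantile normalization. The lowest adjusted p of a named gene under any alternative was 0.667 (limma). The cause of these changes was not tested. FPKM without counts leaves the precision of genes near 0 unknown.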
